A study of Homo sapiens with 10 samples.

Results

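The step from 4 hours (4 h) to day 1 of treatment with TGFβ1 was examined in MCF10A cells, a human mammary epithelial cell line that does not form tumours. For every gene, the log2 expression value of the 4 h array was subtracted from that of the day 1 array, so that a positive difference is a higher level at day 1. All 23786 genes of 23786 on the arrays were followed, on 2 of the 10 arrays of the series, and the other 8 arrays serve to place the step. In the series, untreated cells have 1 array, as does each of the treatment times of 4 h and 1, 2, 3, 4, 5, 6, 8 and 12 days, with TGFβ1 at 10 ng/mL throughout. No genetic change was introduced, and all groups are the same cell line, kept without serum before harvest by the study's methods. The labels give the medium as full growth medium. Both sides of the comparison were therefore treated cells, and they differ in the length of treatment. By the study's methods, the time without serum was longer than 4 h and shorter than 1 day. TGFβ1 was then added within that time for the 4 h array and before it for the day 1 array. Effects of the medium at addition and of the length of treatment cannot be told apart. Each side is 1 array, and whether an array holds RNA of 1 culture or of a pool is not stated in the sources used here, so that no replicate error exists for any difference below.

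TGFβ1 binds paired serine/threonine kinase receptors, which phosphorylate SMAD2 and SMAD3, and these enter the nucleus with SMAD4. The first genes to respond are direct SMAD targets, among them inhibitors of the pathway itself, together with genes of growth factor and stress signalling that respond quickly and fade. Genes of the extracellular matrix, of matrix breakdown and of the mesenchymal cytoskeleton usually follow later, in the programme by which epithelial cells lose their junctions and become mesenchymal (epithelial-mesenchymal transition, EMT).

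A log2 difference of 1, a 2-fold difference in signal, was used as the limit. At day 1, 216 genes (0.908% of all genes) were at least 1 log2 higher than at 4 h and 199 genes (0.837%) were at least 1 log2 lower. At a limit of 2 log2, 13 genes were higher and 11 were lower. The differences ran from -2.99 to 2.81, and the median absolute difference of all genes was 0.191 log2. The limit cut through a continuous distribution. IFI44L (1.00) and SESN3 (1.00) lay just inside it on the high side and CDKN1C (0.99) and OAS1 (0.99) just outside. On the low side, GCAT lay just inside it and PAPPA (-0.99) just outside. The arrays before and after showed more movement than this step. From untreated cells to 4 h, 856 genes differed by at least 1 log2 (525 higher and 331 lower), from day 1 to day 2, 561 genes differed, and each later step held between 117 and 286 genes. Of the 216 higher genes, 170 were protein coding (78.7%), against 76.7% of all genes, and of the 199 lower genes 152 were (76.4%). Of the higher genes, 165 (76.4%) had a mean level at or above the median gene, and of the lower genes 136 (68.3%).

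**Figure D1:**
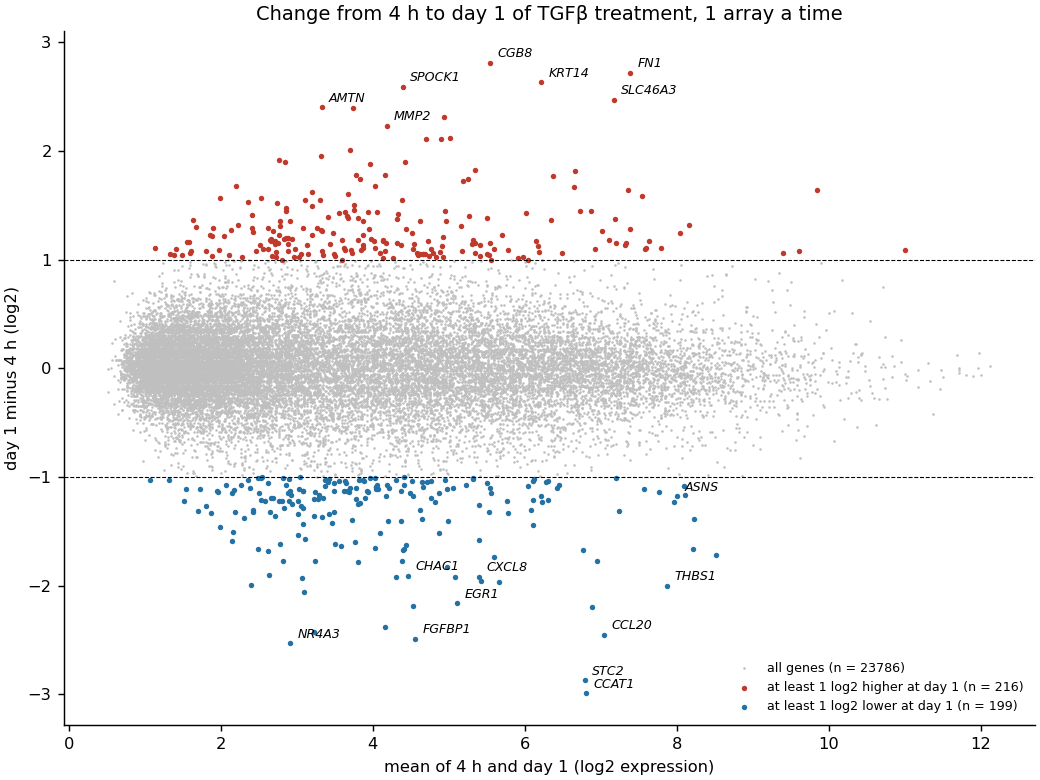
Day 1 minus 4 h (log2, vertical axis) for each gene against the mean of both arrays (log2 expression, horizontal axis). Grey points are all 23786 genes, red points the 216 genes at least 1 log2 higher at day 1 and blue points the 199 genes at least 1 log2 lower. FN1 and SLC46A3 are among the higher genes at a moderate level, and CCAT1 and STC2 have the 2 most negative differences.

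The genes that differed at this step were read out on arrays that took no part in choosing them. Of the 216 higher genes, 101 (46.8%) were at least 1 log2 above untreated cells on both day 2 and day 3, whereas 1002 of all genes (4.21%) were. Conversely, 9 of the 216 (4.17%) were at least 1 log2 below untreated cells on both days, against 540 of all genes (2.27%). Of the 199 lower genes, 52 (26.1%) were at least 1 log2 below untreated cells on both days and 8 (4.02%) were above. The median of days 2 and 3 minus untreated cells was 1.02 log2 for the higher genes, -0.41 for the lower genes and -0.05 for all genes. The higher genes therefore lay mostly above untreated cells in the days after the step, and the lower genes lay below them by a smaller margin. Seen against the same untreated array, the lower genes had a median of 0.61 log2 at 4 h, -0.63 at day 1 and -0.41 at day 2. The higher genes had medians of -0.13, 1.09 and 1.07 on these arrays. The medians at 4 h and at day 1 share their arrays with the choice of the genes and are a description only. Day 12 was set against the mean of days 5, 6 and 8, a readout chosen after the data were seen. Of the 199 lower genes, 22 (11.1%) were at least 1 log2 higher on day 12 and 0 were lower, against 122 (0.513%) and 117 (0.492%) of all genes. Of the 216 higher genes, 20 (9.26%) were lower on day 12 and 5 (2.31%) were higher.

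**Figure D2:**
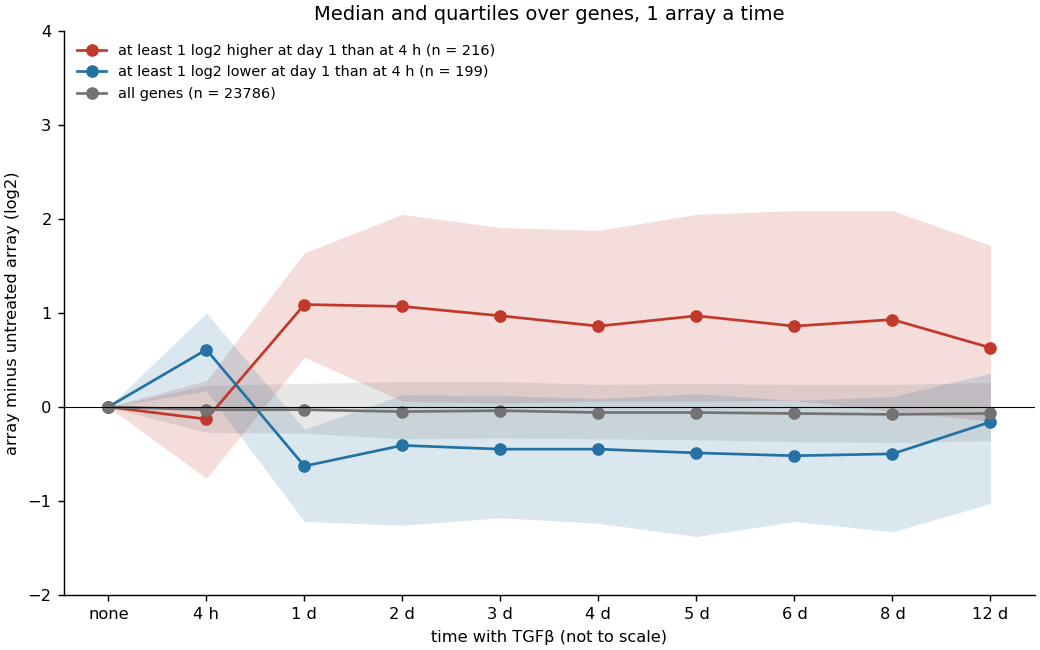
Each array minus the untreated array (log2, vertical axis) along the time with TGFβ (horizontal axis, not to scale). Lines join medians over genes and bands span the quartiles, for the 216 genes higher at day 1 than at 4 h (red), the 199 lower genes (blue) and all 23786 genes (grey). The blue median turns from 0.61 at 4 h to -0.63 at day 1 and ends at -0.16 on day 12. The red median moves from -0.13 to 1.09 and ends at 0.63.

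Several components of the extracellular matrix were among the genes with the largest positive differences. FN1 encodes fibronectin, an adhesive glycoprotein of the matrix and a common marker of mesenchymal cells. Its level was 5.06 in untreated cells, 6.03 at 4 h and 8.75 at day 1, and then 10.48, 11.29, 11.59, 11.80, 11.83, 11.87 and 11.77 on days 2, 3, 4, 5, 6, 8 and 12. The day 1 array thus lay midway in a climb, with 2.72 log2 over 4 h and a further 1.73 to day 2. AMTN, which encodes amelotin, a secreted protein best known from tooth enamel, was at 2.08 and 2.13 in untreated cells and at 4 h and at 4.53 at day 1. It then reached 7.36, 8.67, 8.90, 8.78, 8.61 and 8.53 on days 2, 3, 4, 5, 6 and 8 and was at 6.94 on day 12. AMTN was 0.05 log2 above untreated cells at 4 h, and the step to day 1 was its first difference past the limit. SPOCK1, a secreted proteoglycan, went from 3.10 to 5.69 and stayed between 5.62 and 6.58 afterwards. POSTN encodes periostin, a matrix protein that binds integrins. It measured 1.75 in untreated cells, 1.89 at 4 h, 3.79 at day 1 and 3.83 at day 2, and reached 8.09 on day 8, so that most of its climb came later than this step. DCN, which encodes the small collagen-binding proteoglycan decorin, was 1.68 log2 higher at day 1 (3.19 to 4.87). Of 38 matrix glycoproteins and proteoglycans measured, 7 were at least 1 log2 higher (FN1, SPOCK1, AMTN, POSTN, DCN, CCDC80 with 1.32 and TGFBI with 1.09), 1 was lower and 34 lay above 0. The median of this list was 0.44 log2, against 0.00 over all genes, of which 50.3% lay above 0. The only member lower by 1 log2 was THBS1. These counts hold for the list alone. Outside it, the secreted matrix genes SMOC1 (4.86 to 3.34) and SVEP1 (5.69 to 4.29) were lower, and ABI3BP (2.87 to 4.47) was higher. The list was 1.74 log2 above untreated cells over days 2 and 3 (median). These days share no array with the step. The list, however, holds the given markers FN1 and AMTN and was chosen with earlier results of these data known. Its level on these days is therefore a description only. Of the 25 collagen chains on their list, 0 were at least 1 log2 higher and 1 was lower, with a median of 0.28. COL28A1, a chain outside that list, was 1.46 log2 higher (3.02 to 4.48). COL1A1 (0.93), COL4A1 (0.92) and COL4A2 (0.88) lay just under the limit, and COL8A1 was the listed chain that was lower (7.60 to 5.93).

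**Figure D3:**
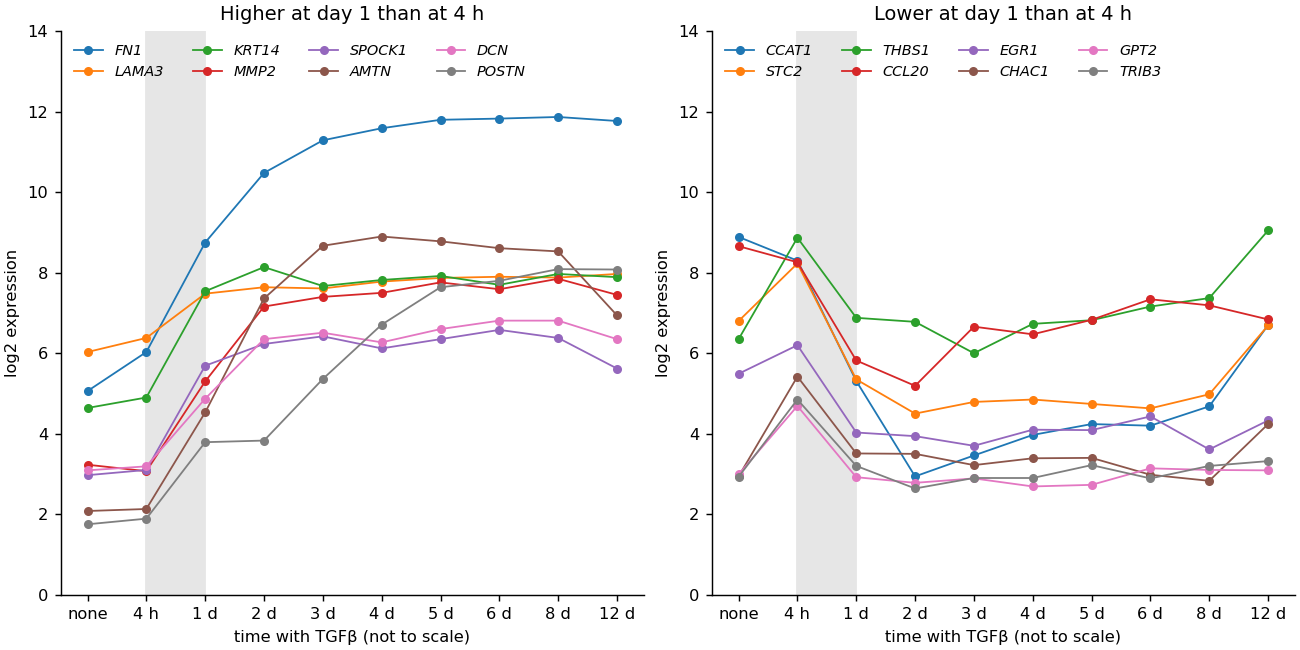
Log2 expression (vertical axis) on each of the 10 arrays (horizontal axis, not to scale) for 8 genes higher at day 1 than at 4 h (left) and 8 genes that were lower (right), with the step shaded. FN1, MMP2, AMTN and DCN stood higher still on day 2, whereas KRT14 was within 0.60 log2 of its day 2 level by day 1. On the right, STC2, THBS1 and CCAT1 are high again on day 12.

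Some genes of the basement membrane and of basal cells were also higher. LAMA3 encodes the alpha chain of a laminin that basal epithelial cells secrete. It went from 6.38 to 7.48, with 6.03 in untreated cells and between 7.61 and 7.97 on the later arrays, so that it was near its later level by day 1. Of 17 laminin and hemidesmosome genes, 14 lay above 0 (50.3% of all genes did) and 0 were lower by 1 log2, with a median of 0.40. Keratin 14, an intermediate filament protein of basal epithelial cells, showed the third largest positive difference. KRT14 stood at 4.64 without TGFβ, 4.90 at 4 h and 7.54 at day 1, and then at 8.14, 7.67, 7.82, 7.92, 7.70, 7.97 and 7.89 on the later arrays. Most of its difference from untreated cells arose within this step, with 0.26 log2 before it, 2.63 in it and 0.60 more to day 2. Its usual partner KRT5 was 0.75 log2 higher (10.34 to 11.09). Of 12 markers of basal mammary epithelium, 11 lay above 0, with a median of 0.46, and KRT14 alone passed 1 log2. KRT10, a keratin of suprabasal skin, had a different course. It measured 7.43 in untreated cells, 6.55 at 4 h, 8.18 at day 1 and 7.13 at day 2, and declined on every array after that to 4.38 on day 12.

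Enzymes that cut the matrix and their inhibitors differed in both directions. MMP2, a secreted gelatinase, stood at 3.23 without TGFβ, 3.07 at 4 h and 5.30 at day 1, and at 7.16, 7.40, 7.50, 7.76, 7.59, 7.85 and 7.45 on the later arrays. It was no higher at 4 h than in untreated cells. TLL1, a protease of the family that cleaves procollagen, was 1.17 log2 higher after a larger difference at 4 h (4.18 in untreated cells, 7.05 at 4 h, 8.22 at day 1). ADAMTS6, a secreted metalloprotease, was 1.10 higher, whereas its relative ADAMTS9 was 1.83 lower (5.89 to 4.06). SERPINE2, an inhibitor of thrombin and of plasminogen activators, was at 5.49 at 4 h, 7.25 at day 1 and 4.96 at day 2, so that day 1 was its highest array of the 10. SERPINB2 was 1.23 lower. Of the 33 matrix proteases and inhibitors on the list, 4 were at least 1 log2 higher and 2 were lower, with a median of 0.30. Over all genes, the shares higher and lower were 0.908% and 0.837%. ADAMTS7, outside the list, was 1.14 higher (2.87 to 4.01).

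Several of the largest increases lay outside the matrix. SLC46A3, a lysosomal transporter, measured 5.14 in untreated cells, 5.94 at 4 h and 8.41 at day 1, and reached 10.12 on day 8. LRP1, an endocytic receptor for many matrix proteins and proteases, went from 4.38 to 6.12 and to 7.58 on day 2. SORL1, a sorting receptor of the same receptor family, went from 3.96 to 6.08 and was between 5.60 and 5.87 from day 2 to day 8. PCDH9, a protocadherin, was at 3.80 and 3.78 before the step and at 6.09 after it. CDH2, which encodes N-cadherin, an adhesion protein of mesenchymal and neural cells, went from 4.81 to 6.19 and had been at 3.44 in untreated cells. TGM2, a transglutaminase that crosslinks matrix proteins, went from 2.99 to 4.37 and to 6.45 on day 12. Cell surface receptors among the higher genes included CXCR4 (5.30 to 6.73) and ACKR3 (3.63 to 5.00), both receptors of the chemokine CXCL12, and CSF1R (6.01 to 7.45), the receptor of CSF1. PDPN, a mucin-type membrane glycoprotein, was 1.37 higher. The largest positive difference belonged to CGB8, a gene of the cluster for the beta subunit of chorionic gonadotropin. It was at 3.41, 4.14, 6.95 and 7.88 on the first 4 arrays, but the genes of this cluster are nearly identical in sequence, and CGB3 from the same cluster was at 4.26 at 4 h and 4.48 at day 1, so that the assignment to 1 gene is uncertain.

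Some genes were high on the day 1 array and lower again on the next. CD200, a membrane glycoprotein that restrains myeloid cells, stood at 3.41 without TGFβ, 3.02 at 4 h, 4.90 at day 1 and 3.38 at day 2, and its day 1 value was the highest of the 10. PDE4B, a phosphodiesterase that breaks down cyclic AMP, was at 2.07, 3.26 and 2.13 at 4 h, day 1 and day 2. With 1 array a time, such a value cannot be told apart from an error of that array. Other genes lay lower at 4 h than in untreated cells and higher again at day 1. PLSCR2, of the scramblase family, measured 6.07 in untreated cells, 4.32 at 4 h, 6.05 at day 1 and 3.81 at day 2. ZNF449, a zinc finger protein, was at 3.75, 2.71 and 4.10 and then between 3.84 and 4.34. GLUL, the enzyme that makes glutamine, was at 7.34, 6.75, 8.33 and 8.31 on the first 4 arrays. TNFSF13, a cytokine that acts on B cells, was at 3.78, 2.54, 4.93 and 4.57 and reached 2.54 again on day 8. These differences contain a low 4 h value, and the day 1 level of PLSCR2 and ZNF449 lay near that of untreated cells.

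The core of the TGFβ response had a high level at 4 h and held it over this step. Of 25 SMAD feedback genes and direct targets, 3 were at least 1 log2 higher at day 1 (TGM2, TGFBI and ITGB6), against 0.908% of all genes. In this list 0 were lower and 15 lay below 0, with a median of -0.14. Against untreated cells, this list had a median of 1.04 at 4 h and 0.95 at day 1. SMAD7, the inhibitory SMAD, was at 3.63, 5.43 and 4.83 in untreated cells, at 4 h and at day 1. PMEPA1, another inhibitor of the pathway, was at 4.21, 6.84 and 6.83. SKIL, a corepressor of SMAD proteins, was at 6.08, 8.14 and 7.76. ID1, an inhibitor of basic helix-loop-helix factors and a target of BMP and TGFβ receptors, was the member of its list with the largest drop. It stood at 3.72 without TGFβ, 6.72 at 4 h, 5.51 at day 1 and 6.55 at day 2, so that day 1 was lower than both neighbours. Of 20 EMT transcription factors, 0 were at least 1 log2 apart in either direction, with a median of -0.11. ZEB2 (4.45 to 5.31) had the largest positive difference and SOX9 (6.64 to 5.86) the largest negative one. SNAI1 was at 2.24 and 2.05. Of 34 genes of epithelial junctions and polarity, 0 passed the limit, with a median of 0.12. E-cadherin (CDH1) was at 9.30 and 9.52, CLDN1 at 9.14 and 8.39, and EPCAM at 8.02 and 7.41. The mesenchymal filament protein vimentin (VIM) was at 7.59 at 4 h and 8.53 at day 1. Mesenchymal markers did not move as a set. Of 18 such genes, 3 were at least 1 log2 higher and 0 were lower, against 0.908% and 0.837% of all genes. In this list 10 lay above 0 and 8 below 0, with a median of 0.16.

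**Figure D4:**
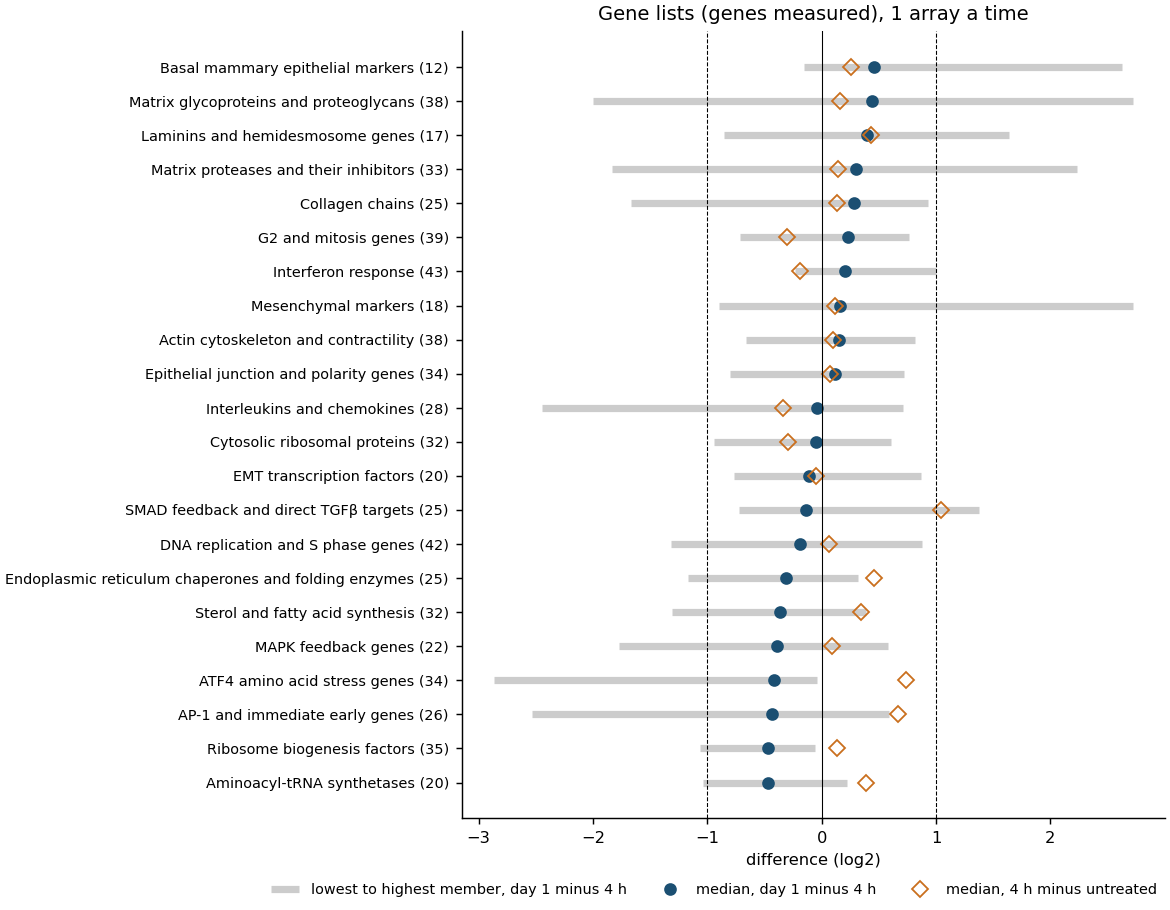
Day 1 minus 4 h for 22 gene lists (log2, horizontal axis), with the number of genes measured in brackets. Filled circles are medians, grey bars run from the lowest to the highest member, and open diamonds give the median of 4 h minus untreated cells for the same list. The 2 differences share the 4 h array, so that their opposite signs in a list are no separate observations. The SMAD target list has its diamond at 1.04 and its circle at -0.14.

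The lower genes included a group that the transcription factor ATF4 induces when amino acids are short or the endoplasmic reticulum is under stress. CHAC1 encodes an enzyme that degrades glutathione and is a well-known ATF4 target. Its level was 2.94 in untreated cells, 5.42 at 4 h and 3.51 at day 1, and then 3.50, 3.22, 3.39, 3.40, 2.98, 2.83 and 4.24 on the later arrays. It was 1.91 log2 lower at day 1 than at 4 h, and 0.57 above untreated cells. TRIB3, a pseudokinase that is itself induced by ATF4, was at 2.93, 4.85 and 3.20 and stayed between 2.64 and 3.32. GPT2, the mitochondrial alanine transaminase, was at 2.99, 4.69 and 2.92 and stayed between 2.69 and 3.14. GPT2 and TRIB3 were thus high at 4 h alone, and CHAC1 at 4 h and, less so, on day 12. STC2, which encodes the secreted hormone stanniocalcin 2, went further down. It measured 6.80 in untreated cells, 8.23 at 4 h and 5.35 at day 1, and then at 4.50, 4.79, 4.85, 4.74, 4.63, 4.98 and 6.69. SLC7A11, the cystine and glutamate exchanger, was at 8.66, 9.38 and 7.66 on the first 3 arrays and at 6.29 on day 2. ASNS, asparagine synthetase, was at 8.26, 8.60, 7.42 and 5.77 on the first 4 arrays. For these 3, day 1 was a point on a continuing decline below untreated cells. DDIT3, the stress factor CHOP, was 1.17 lower, PCK2, the mitochondrial form of phosphoenolpyruvate carboxykinase, 1.07 lower and MTHFD2, an enzyme of mitochondrial folate metabolism, 1.05 lower. In all, 9 of 34 genes of the list were at least 1 log2 lower, 0 were higher and 34 lay below 0, with a median of -0.42. Of all genes, 49.6% lay below 0. ATF4 mRNA itself was at 7.17 and 6.90, a difference of -0.27. Against untreated cells, the list had a median of 0.74 at 4 h and 0.23 at day 1, and of -0.18 over days 2 and 3.

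The promoters of these genes were searched for the letters of the C/EBP-ATF composite element (CARE), TGATGNAAN on either strand, to which ATF4 binds with C/EBP partners. The windows are the 250 bases before the gene start in RefSeq's GRCh38.p14 promoter table, which held a promoter for 16338 of the genes measured. Of all these genes, 3.2% carried a match, against 6 of 28 genes of the ATF4 list (21.4%), 10 of 125 lower genes (8.0%) and 7 of 147 higher genes (4.76%). Many genes have more than 1 window, with a mean of 1.64 for the ATF4 list, 1.46 for the lower genes and 1.39 for all genes. With a single window a gene, the shares fell to 2.28% of all genes, 3 of the 28 genes of the ATF4 list (10.7%), 4.0% of the lower and 3.4% of the higher genes. A match is a description of letters and shows no binding. The ATF4 list was made of genes that ATF4 is held to induce, so that its share is no independent observation. The lower genes include its members CHAC1 and ASNS, which carry a match. Matching stretches of 3 lower genes are shown, since CHAC1 and ASNS are members of the list and HERPUD1, a stress gene of the endoplasmic reticulum, was lower by 1.14 log2 (8.34 to 7.20). Capitals mark the match, each stretch is read in the direction of the gene, and CHAC1 and HERPUD1 hold the element on the opposite strand.
CHAC1, chr15:40953221-40953309, plus strand: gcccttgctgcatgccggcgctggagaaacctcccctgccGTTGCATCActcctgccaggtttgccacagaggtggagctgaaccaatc
ASNS, chr7:97872428-97872516, minus strand: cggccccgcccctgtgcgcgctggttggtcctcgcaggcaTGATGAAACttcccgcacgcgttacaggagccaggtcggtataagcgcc
HERPUD1, chr16:56931925-56932013, plus strand: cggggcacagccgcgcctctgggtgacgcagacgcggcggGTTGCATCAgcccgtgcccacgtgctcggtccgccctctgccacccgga
The match in CHAC1 and that in HERPUD1 hold the same letters.

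Some genes of immediate early response and of feedback on the mitogen-activated protein kinase (MAPK) pathway were lower as well. EGR1, a zinc finger factor induced within minutes by growth factors, stood at 5.49 without TGFβ, 6.20 at 4 h and 4.03 at day 1, and lay between 3.61 and 4.43 afterwards. NR4A3, an orphan nuclear receptor of the immediate early class, was at 1.89, 4.18 and 1.65 and between 1.66 and 2.04 afterwards. The 4 h array was the only one on which NR4A3 stood apart from a low level. NR4A1 of the same family was 1.08 lower (3.91 to 2.83). IER3, an immediate early gene that prolongs ERK signalling, was 1.21 lower. Of the AP-1 subunits, JUN was at 6.52 and 5.82 and FOS at 3.91 and 3.98. Of 26 AP-1 and immediate early genes, 4 were at least 1 log2 lower, 0 were higher and 21 lay below 0, with a median of -0.43. Over all genes, 0.837% were at least 1 log2 lower and 49.6% lay below 0. DUSP6, the phosphatase of ERK, measured 3.03 in untreated cells, 3.70 at 4 h and 1.93 at day 1, and between 1.92 and 2.44 until day 8. SPRED2 and SPRED1, inhibitors that act between Ras and Raf, were 1.60 and 1.03 lower. Together with IER3, these were the 4 of 22 MAPK feedback genes below the limit, and 0 were above it. EPHA2, a receptor tyrosine kinase that ERK signalling induces, was 1.15 lower and FGFBP1, a carrier protein that releases fibroblast growth factors, was at 5.21, 5.80 and 3.32 and was at 1.60 on day 12.

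**Figure D5:**
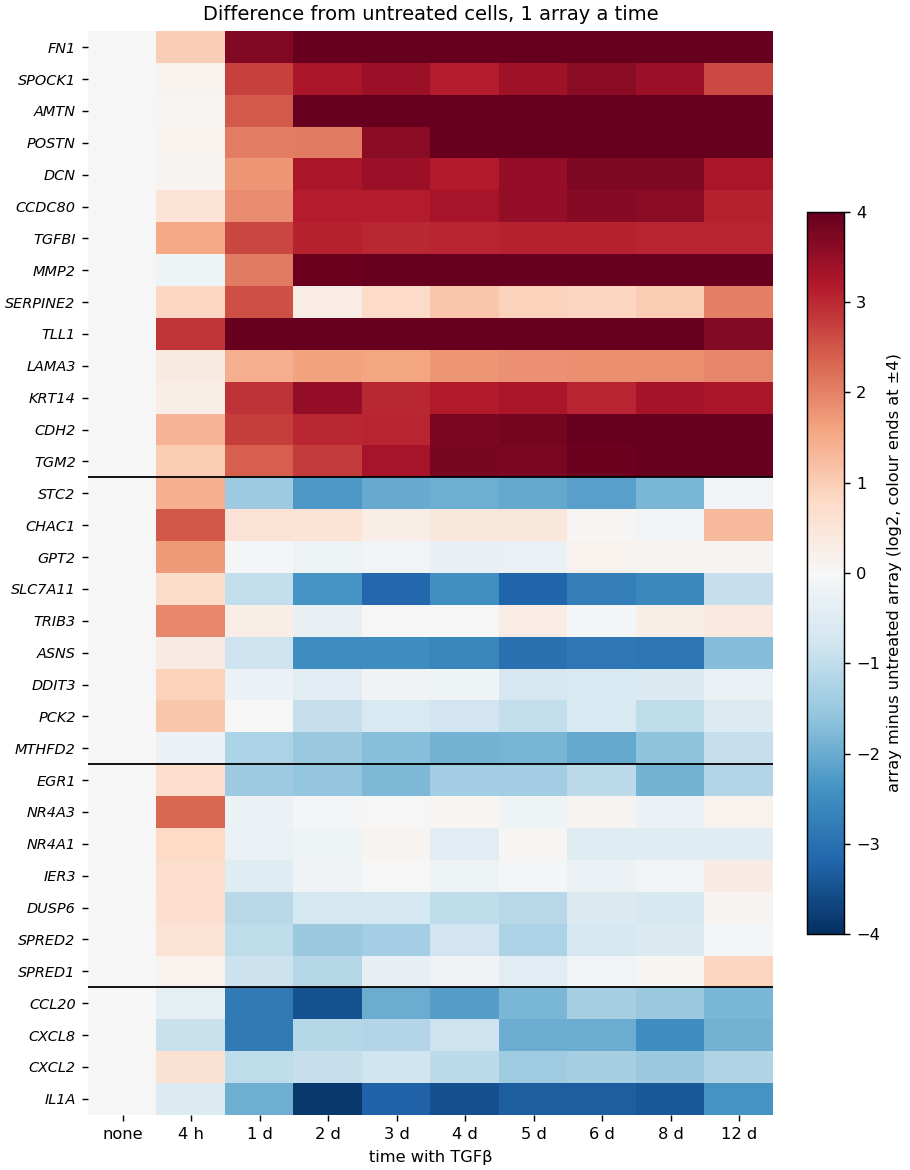
Each array minus the untreated array (log2, colour, ending at 4 in either direction) for 34 genes at least 1 log2 apart between 4 h and day 1. Rows are genes and columns the 10 arrays. Lines part, from the top, matrix, laminin, keratin and mesenchymal genes, genes of the ATF4 list, immediate early and MAPK feedback genes, and chemokines with IL1A. In the second block, CHAC1, GPT2 and TRIB3 are red at 4 h alone or nearly so, whereas SLC7A11 and ASNS turn blue from day 1 onwards.

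Secreted signals of inflammation were among the lower genes, and these had not been raised at 4 h with 1 exception. CCL20, a chemokine that attracts lymphocytes and dendritic cells, stood at 8.66 without TGFβ, 8.26 at 4 h, 5.82 at day 1 and 5.19 at day 2, and between 6.47 and 7.34 afterwards. CXCL8, the neutrophil chemokine interleukin 8, was at 7.26, 6.36, 4.43 and 6.11 on the first 4 arrays, so that day 1 was its lowest array of the 10. IL1A, which encodes interleukin 1 alpha, was at 9.47, 8.92, 7.53 and 5.62. CXCL2, a relative of CXCL8, was the exception, at 4.64 in untreated cells, 5.26 at 4 h and 3.62 at day 1. Of the 28 interleukins and chemokines on the list, these 4 were at least 1 log2 lower and 0 were higher, against 0.837% and 0.908% of all genes. The median was -0.04, near that of all genes. Outside the list, the interleukin IL15 (3.30 to 4.43) and the chemokine XCL1 (1.59 to 2.63, a low level) were higher past the limit. TNFSF15, a ligand of the tumour necrosis factor family, went from 6.65 to 4.68 and OLR1, a scavenger receptor for oxidised lipoprotein, from 7.99 to 5.79. Of 27 secreted genes of epithelial defence, 0 passed the limit, 22 lay below 0 and 5 above 0, with a median of -0.22. Against untreated cells, this list had a median of 0.15 at 4 h, -0.02 at day 1 and -1.43 on day 12. The defence genes S100A9 (5.02 to 4.16) and SCGB1A1 (5.44 to 4.65) were lower at day 1 than at 4 h.

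The same promoter windows were searched for the AP-1 element, TGANTCA, and for the cyclic AMP response element, TGACGTCA, on both strands. The AP-1 letters occurred in 22 of 125 lower genes (17.6%), in 8 of 147 higher genes (5.44%) and in 7.33% of all genes. With a single window a gene, the shares were 10.4%, 3.4% and 5.34%. The lists did not follow this order. With all windows, the AP-1 letters occurred in 4 of 27 matrix glycoprotein and proteoglycan genes (14.8%) and 3 of 28 ATF4 list genes (10.7%). They occurred in 1 of 16 MAPK feedback genes (6.25%) and 0 of 20 AP-1 and immediate early genes. The second element occurred in 8 lower genes (6.4%), 2 of the 147 higher genes and 2.7% of all genes. The 2 elements share their ends, TGA and TCA, but cannot overlap each other. The stretches of 4 lower genes and 1 higher gene are shown because they are the chemokine, cytokine and stress genes described above and the matrix gene POSTN. Capitals mark the AP-1 letters, which lie 137 bases before the start of CXCL8, 120 before TNFSF15 and 220 before POSTN.
CXCL8, chr4:73740392-73740478, plus strand: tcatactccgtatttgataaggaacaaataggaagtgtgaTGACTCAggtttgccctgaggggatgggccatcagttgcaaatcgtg
IL1A, chr2:112784409-112784545, minus strand: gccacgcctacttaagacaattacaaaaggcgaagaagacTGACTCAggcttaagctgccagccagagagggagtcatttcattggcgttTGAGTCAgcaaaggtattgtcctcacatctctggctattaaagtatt
TNFSF15, chr9:114792604-114792690, minus strand: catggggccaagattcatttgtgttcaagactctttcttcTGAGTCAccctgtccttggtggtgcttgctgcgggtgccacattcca
DDIT3, chr12:57520709-57520764, minus strand: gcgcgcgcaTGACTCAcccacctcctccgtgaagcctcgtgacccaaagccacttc
POSTN, chr13:37598942-37599018, minus strand: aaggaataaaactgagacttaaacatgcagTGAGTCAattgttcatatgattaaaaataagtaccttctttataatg
IL1A holds 2 matches in this window and each of the others holds 1. The CRE letters of FN1, the matrix gene with the largest difference, lie 183 bases before its start.
FN1, chr2:215436204-215436291, minus strand: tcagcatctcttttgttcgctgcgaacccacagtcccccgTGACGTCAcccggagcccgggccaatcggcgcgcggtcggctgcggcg

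Most listed genes that build proteins, ribosomes and lipids were lower by small amounts. Over all genes, 49.6% lay below 0. All 35 ribosome biogenesis factors on the list lay below 0, with a median of -0.47, and RRP12 (6.03 to 4.97) alone among them passed the limit. Outside the list, the ribosome biogenesis factors NOL6 (5.12 to 3.94) and PNO1 (5.45 to 4.29) passed it as well. NOP56, a core protein of the particles that methylate ribosomal RNA, was 0.92 lower and NOLC1, a nucleolar chaperone, 0.91 lower. Of 20 cytosolic aminoacyl-tRNA synthetases, which charge tRNAs with amino acids, 18 lay below 0, with a median of -0.47, and WARS1 was the only one past the limit (6.63 to 5.59). The cytosolic ribosomal proteins did not share this, with a median of -0.05 and 0 of 32 past the limit. Of 32 genes of sterol and fatty acid synthesis, 31 lay below 0, with a median of -0.36. CYP51A1, an enzyme of the cholesterol pathway, was at 7.90 and 6.59 and ELOVL6, which elongates fatty acids, at 6.97 and 5.87. Of 25 chaperones and folding enzymes of the endoplasmic reticulum, 22 lay below 0, with a median of -0.31. XBP1, a transcription factor of the unfolded protein response, measured 7.94 in untreated cells, 8.69 at 4 h and 7.52 at day 1. HSPA5, the chaperone BiP, was at 8.77, 10.03 and 9.20. Over days 2 and 3 against untreated cells, the medians were -0.71 for ribosome biogenesis, -0.55 for the synthetases, -0.32 for lipid synthesis and 0.08 for the chaperones. In whole-culture RNA, fewer cells of a kind and less RNA a cell cannot be told apart.

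Nearly all listed genes of cell division stayed under the limit, and the medians of both lists were small. Over all genes, the median difference was 0.002, with 50.3% above 0 and 49.6% below 0. The median absolute difference of 0.191 is the size for a single gene and is no measure for the median of a list. Of 39 genes of G2 and mitosis, 32 lay above 0, with a median of 0.23 and 0 past the limit. CDK1, the kinase that starts mitosis, stood at 2.76 without TGFβ, 1.93 at 4 h and 2.69 at day 1, and reached 5.44 on day 8. KIF20A, a kinesin of cell division, was at 2.54, 2.13 and 2.83 and at 4.77 on day 2. Of 42 genes of DNA replication and S phase, 31 lay below 0, with a median of -0.19. CDC6, which loads the replicative helicase, was the only one past the limit and was at 2.67, 3.08 and 1.76 on the first 3 arrays and at 3.83 on day 12. DTL, which directs the breakdown of the licensing factor CDT1, went from 5.27 to 3.49 and was at 6.52 on day 12. FAM111B, a serine protease, went from 4.04 to 2.10 and was at 4.95 on day 12. These 3 genes had their highest array of the 10 on day 12. Interferon response genes had a median of 0.20, with 32 of 43 above 0 and IFI44L at the limit.

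A set of lower genes had a high value on day 12 as well as before the step. CCAT1, a long noncoding RNA with the most negative difference of all genes, measured 8.89 in untreated cells, 8.30 at 4 h and 5.31 at day 1. It was then at 2.94, 3.46, 3.97, 4.24, 4.20, 4.68 and 6.70 on days 2, 3, 4, 5, 6, 8 and 12. THBS1 encodes thrombospondin 1, a matrix glycoprotein that can activate latent TGFβ. It stood at 6.35 without TGFβ, 8.87 at 4 h and 6.88 at day 1, then at 6.78, 6.00, 6.73, 6.82, 7.16 and 7.37, and at 9.05 on day 12. Its levels at 4 h and on day 12 stood above the other 8 arrays. SLC7A11, ASNS, CHAC1, STC2 and EPHA2 were also among the 22 lower genes that were at least 1 log2 higher on day 12 than over days 5, 6 and 8. The ATF4 list had a median difference of 0.47 on that readout, and all genes 0.00. Among the 20 higher genes that were lower on day 12 were AMTN, PCDH9, SEMA6D, RNASE4 and GABRA3. SEMA6D, a transmembrane semaphorin, was at 4.59, 3.64, 5.75 and 6.72 on the first 4 arrays and at 3.55 on day 12. The day 12 values rest on 1 array.

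Markers of other cell types were checked because several of the genes above are also used to mark fibroblasts. Of 12 fibroblast markers, DCN was higher by 1 log2, 0 were lower and the median was 0.24, within a range of 1.04 to 8.22 in level at 4 h and 1.24 to 9.08 at day 1. COL3A1 was at 1.92 and 1.49 and THY1 at 3.94 and 4.22. Of 12 immune and endothelial markers, 0 passed the limit and the median was -0.03, and the pan-leukocyte gene PTPRC was at 1.18 and 1.08, below the lower quartile of 1.70 on both arrays. Basal epithelial markers were at a median level of 8.74 at 4 h and 9.06 at day 1. The median level of all genes was 2.92 and 2.94 on these arrays.

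Since each time had 1 array, the spread needed for a test was taken from the later arrays, days 2 to 4 and days 5 to 12, in limma over all genes, on the assumption that the arrays of 4 h and day 1 vary like these. This spread contains real change between the later days and is no replicate error. With it, 9 genes (0.0378%) passed as higher and 10 genes (0.042%) as lower at a Benjamini-Hochberg adjusted p of 0.05 and 1 log2. An unadjusted p of 0.05 with 1 log2 was reached by 188 genes upwards and 169 downwards. Among the 9 higher genes were CGB8 (adjusted p = 0.00401), KRT14 (adjusted p = 0.00905, SE 0.25), MMP2 (adjusted p = 0.0279, SE 0.25), SLC46A3, CSF1R, ZNF449, the noncoding RNA LINC00887 and 1 locus without a symbol. The 10 lower genes were NR4A3 (adjusted p = 0.00905, SE 0.23), FGFBP1, GJB2, GPT2, CXCL2, SLC43A3, ANK2, NUFIP1 and the noncoding RNAs LINC02806 and KCNQ5-IT1. GJB2, which encodes the gap junction protein connexin 26, was at 3.89, 5.35 and 2.97 on the first 3 arrays. Larger differences did not pass where a gene moved on between the later days, such as FN1 (limma adjusted p = 0.0618), STC2 (adjusted p = 0.340), AMTN (adjusted p = 0.500) and CCAT1 (adjusted p = 0.448). The counts of calls were unstable. Without the day 12 array they were 23 and 21, and without any one of the other later arrays they were between 2 and 5 higher and between 1 and 2 lower.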

How the data were processed

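RNA of MCF10A cells was hybridised to Affymetrix whole-transcript arrays, 1 array for untreated cells and 1 for each of 9 times with TGFβ1. The deposited values are log2 expression, which the authors made by RMA in the affy package (background correction, quantile normalization between arrays and summary to 1 value per Entrez gene). Quantile normalization gives all arrays nearly the same distribution, so a shift shared by most genes could not be seen. The genome build is not given in the sources used here. By the study's methods, treatments were staggered and all plates harvested together. All 23786 genes were kept. NCBI's gene table (GRCh38.p14), matched by Entrez identifier, named 23093 genes and left 693 unnamed.

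Day 1 minus 4 h was taken from the log2 values as deposited in Python 3.11.15 (pandas 2.3.3, numpy 2.4.6, figures in matplotlib 3.10.9). A gene was counted at a difference of at least 1 log2. No test is possible on 2 single arrays. A fit in R 4.3.3 with limma 3.58.1 gave untreated cells, 4 h and day 1 a level each and days 2 to 4 and days 5 to 12 a shared level each, so that the spread comes from the later arrays (5 residual degrees of freedom, 4.7 prior degrees of freedom, median residual SD 0.174, median SE of the difference 0.244). P-values were adjusted by Benjamini-Hochberg over all genes. The number of arrays limits the precision. Lists are described by counts and medians, without a test. The 50 lists, the members and the limits were chosen with earlier results of these data known.

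Genes were named by rule among named genes at or above the median gene: the 14 largest differences each way, the 8 largest each way by the smallest gap of days 1 to 3 from untreated cells and 4 h, the 8 largest falls after a rise at 4 h of 1 log2 and the 6 largest rises after a fall, up to 5 members of a list, and the given markers FN1, MMP2, AMTN and CHAC1. The other genes in the text were named outside this rule, after their values were seen. They are those called by the limma fit, well-known members or targets of the pathways described (SMAD7, PMEPA1, SKIL, TGFBI, ID1, JUN, FOS, NR4A1, ATF4, ASNS, DDIT3, PCK2, MTHFD2, HSPA5, CDH1, CDH2, VIM, SNAI1, EPCAM, KRT5, COL1A1, KIF20A, THY1, PTPRC), the uncertain relative CGB3, genes at the limit (SESN3, GCAT), and LRP1, CXCR4, ACKR3, PDPN, KRT10, CD200, PDE4B, GLUL, ADAMTS6, CCDC80, DTL, SLC7A2, SLC1A3, SLC7A5, MIR29A and MIR29B2. COL28A1, SMOC1, SVEP1, ABI3BP, IL15, XCL1, NOL6, PNO1 and ADAMTS7 were also named after their values were seen. A few of the genes named by the rule were left out of the text. Alternatives were centring each array, cyclic loess, a filter on low genes, a limit of 1.5 log2, neighbouring arrays and other ways to take the spread.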

Additional observations from a re-analysis of the deposited data

How the results depend on the processing

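The counts of genes at least 1 log2 apart (216 higher and 199 lower) stayed within 1.5 times under centring of each array, cyclic loess, the filter at the median gene and the mean of untreated cells and 4 h in place of 4 h. At a limit of 1.5 log2 there were 42 higher and 48 lower genes, of which 21 and 18 had the same direction against untreated cells on days 2 and 3 (101 and 52 at 1 log2). With the mean of days 1 and 2 in place of day 1, 341 genes were higher. Calls with the spread of the later arrays (9 higher and 10 lower) became 5 and 1 under cyclic loess, 14 and 6 with genes at or above the median gene, and 31 and 31 with the spread around a quadratic in time, and 16 genes were higher with a trend on mean level. Leaving out 1 later array each gave 2 to 23 higher and 1 to 21 lower genes, with the upper ends without day 12. The causes were not tested. The medians of all 50 lists moved by less than the median residual SD of 0.174 under centring and loess, and 10 moved with the mean of days 1 and 2. Of 281 gene differences, 1 moved under centring, 1 under loess and 117 with the mean of days 1 and 2, and 0 reversed. No paired analysis was possible because each time has 1 array and the labels give no replicate numbers. Low signal limits genes below the median gene, which make up 51 of the higher and 63 of the lower genes. The median of all genes was 0.002 as deposited, -0.023 with each array centred and 0.006 under cyclic loess.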

Other observations

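A pair of precursors of the same microRNA family stood on opposite sides of the step, and were named after their values were seen. The probe set for MIR29A stood at 2.87 without TGFβ, 3.45 at 4 h and 1.78 at day 1, and between 1.51 and 1.99 until day 8, with 3.16 on day 12. MIR29B2, from another locus, was at 1.08, 2.39 and 4.00 on the first 3 arrays and between 2.68 and 3.32 afterwards. These are low levels from probes for short transcripts on 1 array a time, and they give no level of the mature microRNAs.

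Some single transporters of amino acids were lower. They were picked after their values were seen, from no list, and give no count for transporters as a group. SLC7A2, a carrier of cationic amino acids, stood at 7.05 without TGFβ, 7.83 at 4 h, 6.06 at day 1 and 3.80 at day 2. SLC1A3, a glutamate transporter, was at 6.74, 6.81, 5.63 and 4.27 on these arrays. SLC43A1 and SLC43A3, relatives in one carrier family, went from 5.63 to 4.12 and from 9.04 to 7.38. SLC7A5, the large neutral amino acid transporter, was at 11.58 and 11.16, a difference of -0.42 that did not reach the limit.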
